A study of Drosophila melanogaster with 3 samples.

Results

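The genes described here are 34 neuronal and synaptic genes of Drosophila melanogaster, chosen by name as genes that mark nerve cells and that a thorax would contribute through its ganglion and motor nerves. They comprise neuronal RNA-binding proteins, the machinery that fuses synaptic vesicles, proteins of the active zone and the vesicle, enzymes and vesicular transporters of neurotransmitters, sodium and potassium channels, and 3 further neuronal proteins. They were found on the array through the locus tag of the transcript each probe was designed for, and all 34, of 13927 genes named by a CG locus tag on the array, were represented, by 90 of the 32162 probes. Between 1 and 10 probes stood for a gene, and where there were several the probe with the highest mean signal over all arrays represents it below.

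Gene expression was measured in 3 tissues of wild-type flies of the OreR strain, with 4 arrays for each tissue, each hybridized with an independent pool of RNA from many animals. The testis apical tip, freed of the surrounding sheath, came from adult males that the series text gives as 2 to 4 days old, and holds premeiotic germ cells with the somatic cyst and hub cells of that region. Male thorax and female thorax were cut free of head and abdomen and stripped of legs and wings, so that they hold flight muscle, the thoracic ganglion with its glia, fat body, blood cells, tracheae and epidermis. No gene was altered and no agent was given, and the study's methods give a wider age range for mated donors of both sexes.

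Neurons pass signals at chemical synapses, where an action potential carried by voltage-gated sodium and potassium channels opens calcium channels at the active zone. Calcium then triggers fusion of transmitter-filled vesicles by a complex of SNARE proteins, with synaptotagmin as the calcium sensor and complexin as a partner that holds and promotes the complex. In the fly, acetylcholine is the main excitatory transmitter of the central nervous system, glutamate is the transmitter of motor neurons, and GABA is the main inhibitory transmitter. The ELAV family of RNA-binding proteins, which shape the splicing and processing of neuronal transcripts, is the usual marker of a postmitotic neuron.

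Signals are given as log2 intensity after each array was shifted to a common 75th percentile of 12. The shift was large: before it, the 75th percentile lay between 13.52 and 13.78 on the 4 arrays of testis apical tip and between 10.48 and 11.71 on the 8 thorax arrays. A probe was tested when its mean log2 signal, before that shift, reached 7 in at least 1 tissue, which held for 24878 probes and for the representative probe of 33 of the 34 genes. A gene was called changed at an adjusted p under 0.05 by limma with Benjamini-Hochberg adjustment over all probes tested. After the shift the median change of all tested probes was -1.05 between testis apical tip and male thorax. Without any scaling it was 1.29, and after quantile normalization it was -0.36, so changes of about that size have no direction apart from the scaling. Testis apical tip replicate 1 stood apart, with a mean Pearson r of 0.81 to the other arrays of its tissue across all probes, where the other 3 arrays of that tissue had means of 0.93 and the thorax arrays of at least 0.949. The arrays lay on 3 slides. Slide A carried no testis RNA, only replicates 1 and 2 of each sex. Slide B carried the first pair of testis apical tip arrays beside replicates 3 and 4 from male thorax. Slide C carried the other pair of testis apical tip arrays beside replicates 3 and 4 from female thorax.

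The tissues carried the markers their labels call for. Of 12 germline markers, 11 were well above background on all 4 arrays of testis apical tip, against 3 in male thorax and 4 in female thorax. All 8 flight muscle markers and all 8 glial markers were well above background on every thorax array. In testis apical tip 6 of the 8 flight muscle markers and 5 of the 8 glial markers were also well above background on all 4 arrays. The troponin gene up and the glial genes repo and alrm, which encode a glial transcription factor and an astrocyte protein, were there on no array above background. The summed signal of the flight muscle markers reached log2 values from 10.75 to 12.40 in testis apical tip and from 20.27 to 21.62 in thorax, and that of the glial markers from 13.10 to 14.40 and from 17.83 to 18.38. The summed signal of the 4 neuronal markers elav, nSyb, Syt1 and brp ran from 16.02 to 16.30 in testis apical tip and from 17.64 to 18.55 in thorax. In testis apical tip that sum came mainly from 1 probe of Syt1 and 1 of brp, at means of 15.69 and 14.05. There elav had a mean of 5.95, nSyb of 7.10 and the other probe of Syt1, which was not summed, of 5.55.

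Most of the neuronal genes gave a signal in thorax, and fewer did in testis apical tip. The representative probe was well above background on all 4 arrays for 32 of the 34 genes in male thorax, for 31 in female thorax and for 20 in testis apical tip. Over all probes of the array those shares were 65.1%, 61.3% and 51.4%, where the 20 genes make 58.8%. That 58.8% counts only the brightest probe of each gene. Of all 90 probes of these genes, 93.3% in male thorax, 85.6% in female thorax and 36.7% in testis apical tip were well above background on all 4 arrays. The representative probes of Snap25, VAChT, VGlut and Shab were on no array of testis apical tip above background, and that of futsch was on no array of female thorax. Another probe of Shab was above background on 3 arrays of the tip, and another of futsch on 2 of female thorax. The plot of the level on every array shows these genes as open points.

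**Figure D1:**
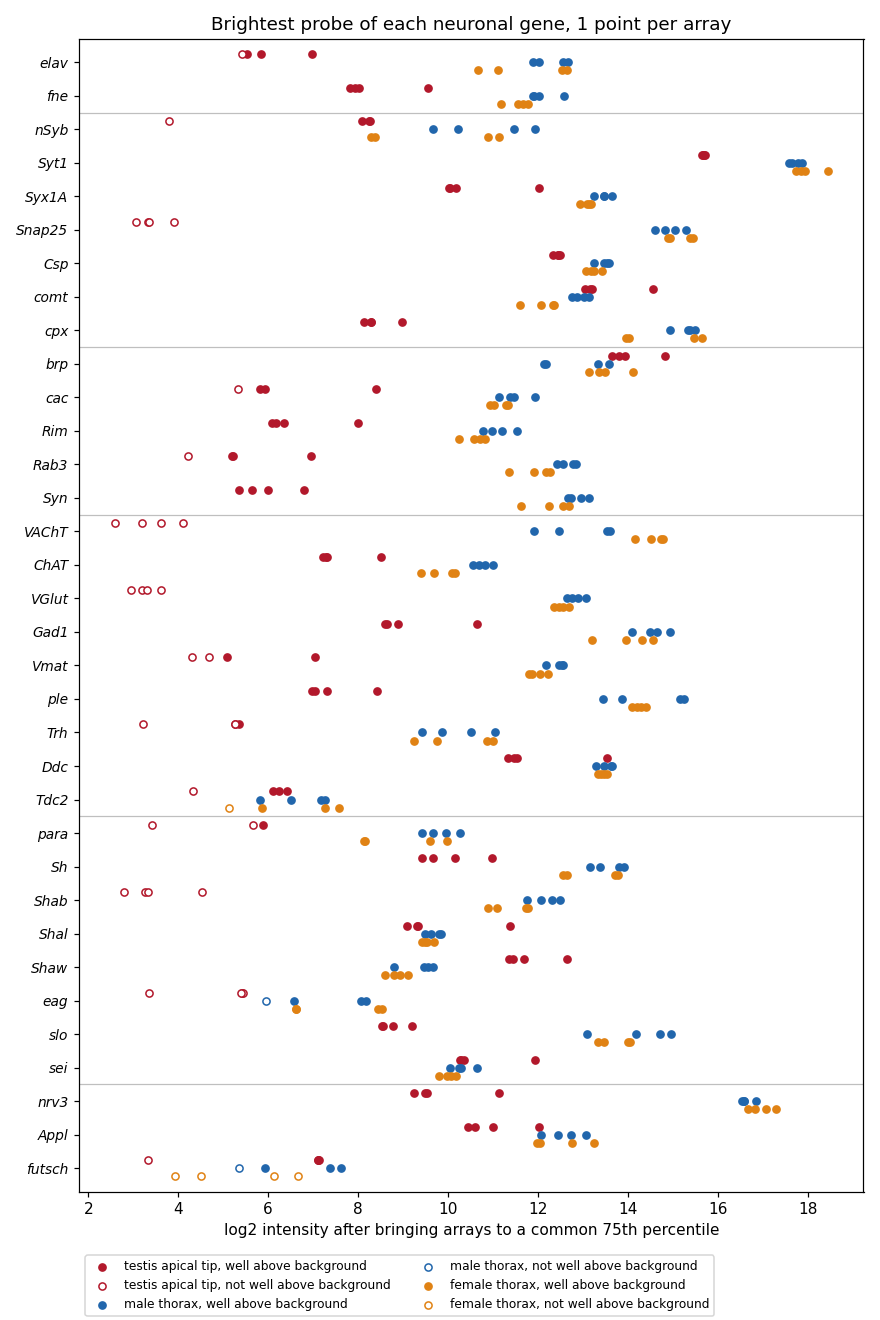
Log2 intensity of the representative probe of each of the 34 genes (horizontal axis, arrays at a common 75th percentile), with 1 point for each of the 12 arrays, coloured by tissue, and open where the software did not call the spot well above background. Lines separate the role groups, and in Snap25, VAChT, VGlut and Shab all 4 points of testis apical tip are open and lie more than 6 log2 units left of every thorax point.

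In testis apical tip 26 of the 33 tested genes were lower than in male thorax, 2 were higher and 5 were not called. Over all tested probes 47.2% were lower and 29.3% were higher in this comparison. The median change of the 33 genes was -4.48 on the log2 scale, against -1.05 for all tested probes, and 25 of the 33 lay below that median of all probes. The median was the same with the 4 genes whose representative probes were above background on no array of the tip set to the smallest fall that their background signal allows. Of the 33, 7 passed the filter on dim probes only through thorax (Snap25, VAChT, VGlut, Vmat, Trh, para and Shab), and the remaining 26 reached log2 7 in testis apical tip, of which 19 were lower. The share that was lower among all probes that reached log2 7 in testis apical tip was not counted, so 19 of 26 has no background beside it. With no scaling between arrays the split was 19 lower and 6 higher, where 24.5% of all tested probes were lower and 48.2% were higher. On slide B alone, with 2 arrays of each tissue, 20 were lower and 1 was higher, against 27% and 15.9% of all tested probes. Without testis apical tip replicate 1 the numbers were 27 and 2, against 51.1% and 35%. Since RNA came from whole tissue, the number of cells of a kind and the RNA in each cell cannot be told apart in any of these values. The study lists no neurons among the cells of the sheath-free apical tip. Which cells gave the signal that remained there was not tested.

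**Figure D2:**
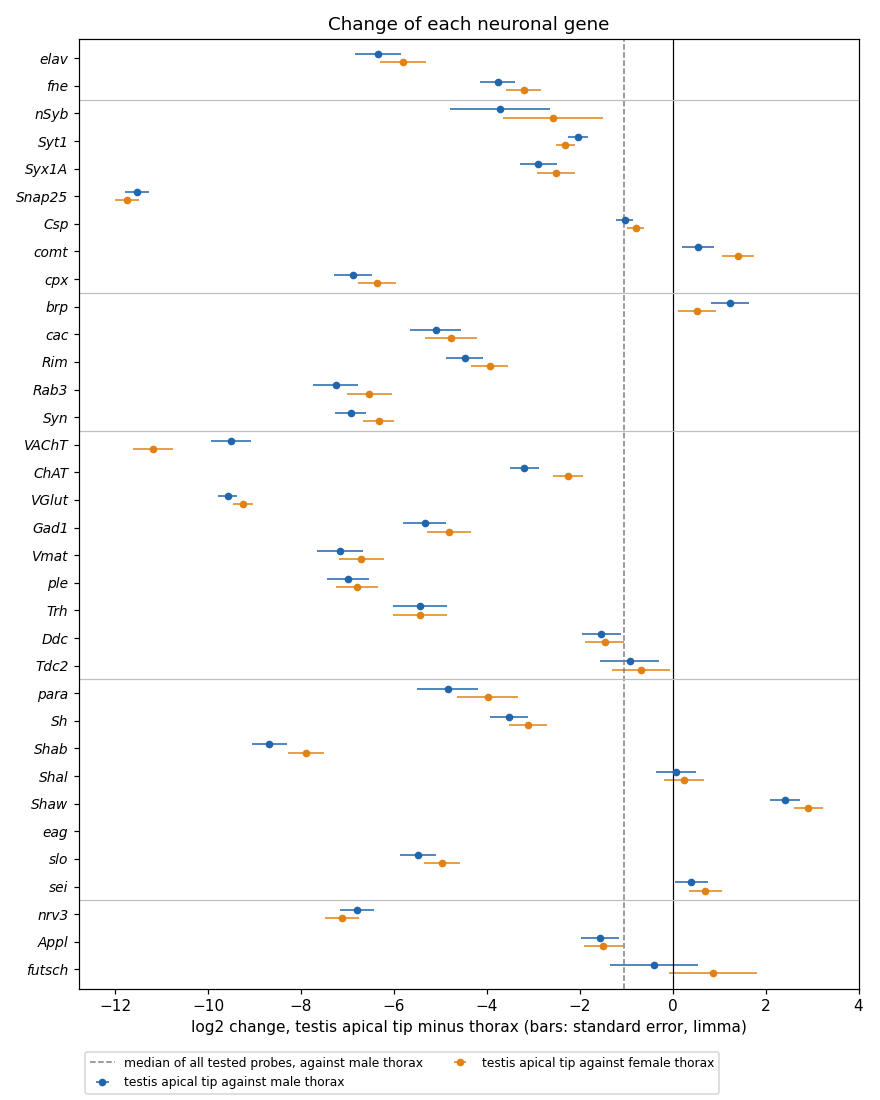
Log2 change of each gene in testis apical tip against male thorax (blue) and against female thorax (orange), with the standard error from limma as bars and 4 arrays per tissue. The dashed line marks the median of all tested probes against male thorax, -1.05, and most genes lie left of it, Snap25 farthest at a fitted -11.53, while Shaw lies at 2.41.

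Both neuronal RNA-binding proteins were lower in testis apical tip. For elav (CG4262), whose protein marks all neurons, the signal was 6.98, 5.85, 5.54 and 5.41 on the arrays of testis apical tip, replicate 4 of which was not above background. In male thorax elav read 12.67, 12.57, 12.02 and 11.90, and in female thorax 12.53, 12.64, 11.12 and 10.67. The groups did not overlap, and within each sex the slide A arrays were the higher pair. The change against male thorax was -6.34 ± 0.50 (SE, n = 4 and 4, adjusted p = 2.94e-07), an 81.2-fold lower level, and all 3 probes of elav were lower. The ELAV relative fne fell by 3.77 (adjusted p = 2.22e-06). The third family gene, Rbp9, which also acts in germ cells of the ovary, fell by 4.68 (adjusted p = 1.25e-07), yet it was well above background on all 4 arrays of testis apical tip, at a mean of 11.11.

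Of the 7 genes of the vesicle fusion machinery 6 were lower and comt was not called. Snap25 (CG40452), the SNARE of the presynaptic membrane that pairs with syntaxin, read 3.33, 3.36, 3.06 and 3.91 in testis apical tip, none above background. It read 14.61, 14.82, 15.05 and 15.29 in male thorax and 15.38, 15.44, 14.94 and 14.89 in female thorax, where the sexes overlapped. Where a probe was above background on no array of a tissue, the fold is given as a bound, the mean of the bright tissue against the mean over arrays of the higher of the dimmest signal that was above background and the probe's own signal. By that bound Snap25 was at least 1350-fold lower in testis apical tip than in male thorax (fitted change -11.53 ± 0.26, adjusted p = 9.63e-11), the largest fall among the 33 genes.

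Complexin, cpx, was represented by 10 probes. Of these 8 were tested and all 8 were lower in testis apical tip. The changes of 5 lay between -8.52 and -5.62 on the log2 scale, and the other 3, above background on no array of the tip, were at least 1770-fold, 1070-fold and 373-fold lower. Its representative probe fell by 6.88 (adjusted p = 2.75e-08). The vesicle SNARE nSyb fell by 3.72 with a wide error (SE 1.08, adjusted p = 0.00805). Its 4 values in testis apical tip were 3.80, 8.24, 8.26 and 8.09, of which replicate 1 was the only one not above background, and without that replicate the fall was 2.62 (adjusted p = 0.0105).

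The other fusion genes moved less. The syntaxin gene Syx1A fell by 2.89 (adjusted p = 3.78e-05). Syt1, the calcium sensor of release, read 15.64, 15.70, 15.72 and 15.68 in testis apical tip and between 17.58 and 17.88 in male thorax, a change of -2.04 ± 0.21 (SE, adjusted p = 2.51e-06) that became 0.30 without scaling and -0.07 after quantile normalization. The chaperone of vesicle proteins Csp fell by 1.03 (adjusted p = 0.000283), 0.02 above the median of all probes, and without scaling its change was 1.31. Before scaling, then, the mean signals of these 2 representative probes were no lower in testis apical tip than in thorax. The other probes of Syt1 and Csp fell by 3.90 and 3.01 against male thorax. Without scaling they fell by 1.56 and 0.66 and were not called (adjusted p = 0.0797 and 0.447). For comt, the fly NSF that takes spent SNARE complexes apart, the change was 0.55 ± 0.34 (SE, adjusted p = 0.159), with 14.57, 13.21, 13.17 and 13.05 in testis apical tip against 12.77 to 13.13 in male thorax.

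Among active zone and vesicle proteins 4 were lower and brp was higher. Rab3 (CG7576), the small GTPase of the synaptic vesicle, read 6.95, 5.19, 5.22 and 4.21 in testis apical tip, 12.84, 12.55, 12.42 and 12.78 in male thorax and 12.18, 12.26, 11.35 and 11.92 in female thorax. The change against male thorax was -7.25 ± 0.48 (SE, adjusted p = 6.79e-08), a 152-fold lower level, with no overlap between the tissues. Synapsin, Syn, which tethers vesicles in reserve, fell by 6.93 (adjusted p = 7.04e-09). The presynaptic calcium channel cac fell by 5.10 (adjusted p = 4.55e-06), and Rim, which ties channel and vesicle together, by 4.48 (adjusted p = 8.32e-07). Of the 4 tested probes of cac 3 were lower. The other changed by -1.27 and was not called (adjusted p = 0.275), and by 1.08 without scaling (adjusted p = 0.365).

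The scaffold gene brp, which encodes Bruchpilot of the T-shaped active zone, moved the other way by its representative probe. Its brightest probe, designed for the older gene model CG34146 that the reference table now places in brp, read 14.83, 13.64, 13.80 and 13.93 in testis apical tip against 13.58, 13.34, 12.14 and 12.17 in male thorax. All 4 tip arrays were above all 4 male arrays, and the change was 1.24 ± 0.41 (SE, adjusted p = 0.016). The call was lost without male thorax replicate 4 (1.03, adjusted p = 0.0505), on slide B alone (2.08, adjusted p = 0.0835) and for the median over its probes (0.68). In female thorax the probe read 13.50, 14.12, 13.37 and 13.14, which overlapped the tip, and that change was not called (0.52, adjusted p = 0.271). The 2 other tested probes of brp, from CG12933 and CG12932, changed by 0.15 and -1.55 and were not called (adjusted p = 0.845 and 0.145). Another, from CG30336, was too dim to be tested. It was above background on no array of the tip and on all 4 of male thorax, and was at least 6.23-fold lower in the tip.

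Of the 9 genes that make transmitters or load them into vesicles 8 were lower. VGlut (CG9887), the vesicular glutamate transporter of motor neurons, read 3.20, 3.62, 2.94 and 3.30 in testis apical tip, none above background. It read 12.89, 12.65, 12.75 and 13.08 in male thorax and 12.47, 12.70, 12.35 and 12.56 in female thorax. The level was at least 316-fold lower than in male thorax (fitted change -9.58 ± 0.21, adjusted p = 9.63e-11), and the spread between arrays of a tissue was at most 0.28 (SD). The vesicular acetylcholine transporter VAChT was likewise on no array of the tip above background, and at least 324-fold lower (adjusted p = 4.04e-09).

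ChAT, the enzyme that makes acetylcholine, whose locus holds VAChT within it, had a measured signal on all 4 arrays of testis apical tip, at 8.51, 7.29, 7.31 and 7.23. In male thorax it read between 10.55 and 11.01, so the fall was 3.19 ± 0.32 (SE, adjusted p = 2.09e-06). The probe for its other transcript was on no array of the tip above background, and at least 59.5-fold lower. Gad1, which makes GABA, fell by 5.34 (adjusted p = 7.47e-07) and Vmat, the vesicular transporter of monoamines, by 7.16 (adjusted p = 8.55e-08), with all 5 probes of Vmat lower.

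The enzymes of monoamine synthesis split by size of change. The tyrosine hydroxylase gene ple, the first step to dopamine, fell by 6.98 (adjusted p = 5.48e-08), with 8.43, 7.32, 7.05 and 6.98 in testis apical tip and 15.17, 15.24, 13.87 and 13.45 in male thorax. Trh, the neuronal tryptophan hydroxylase of the serotonin pathway, fell by 5.44 (adjusted p = 4.32e-06). Ddc, the decarboxylase that dopamine and serotonin synthesis share and that cuticle hardening uses as well, fell by only 1.54 (adjusted p = 0.00605). Its replicate 1 of testis apical tip, at 13.54, lay within the male thorax range of 13.30 to 13.64, the other 3 lay between 11.34 and 11.54, and without scaling the change of Ddc was 0.80. The other probe of Ddc fell by 3.49 (adjusted p = 0.0331), and by 1.14 without scaling (adjusted p = 0.45). Tdc2, the neuronal tyrosine decarboxylase that leads to tyramine and octopamine, was dim in all 3 tissues and not called (-0.93, adjusted p = 0.20), with a sign that turned without scaling (1.42) and after quantile normalization (0.62).

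The channels held both directions. Of 7 tested, 4 were lower, 1 was higher and 2 were not called, and eag (CG10952), a potassium channel, was too dim in every tissue to be tested. Shab (CG1066), a delayed rectifier potassium channel, read 3.27, 2.79, 4.53 and 3.33 in testis apical tip, none above background. It read 12.50, 12.32, 12.08 and 11.75 in male thorax and 11.77, 11.74, 10.88 and 11.09 in female thorax. By this probe Shab was at least 196-fold lower in the tip than in male thorax (fitted change -8.68 ± 0.38, adjusted p = 3.01e-09). The other tested probe of Shab was above background on 3 arrays of the tip and changed by -3.32 (adjusted p = 0.000844). Without scaling that change was -0.98 and not called (adjusted p = 0.226). The calcium-gated potassium channel slo fell by 5.48 (adjusted p = 1.15e-07). The A-type potassium channel Sh, named for the leg shaking of its mutants, fell by 3.52 (adjusted p = 8.71e-06).

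The sodium channel para fell by 4.84 (adjusted p = 5.42e-05), where its spots on testis apical tip replicate 2 were set aside as outliers and the fit used the other 3 arrays of that tissue. Only 1 of those 3 was above background. Both tested probes of para were lower. Sh, slo and Shab were lower by every tested probe as well, Sh by 4 of 4.

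Shaw (CG2822), a potassium channel of the non-inactivating kind, was the only gene called in opposite directions by its own probes. The probe for its transcript RB read 12.64, 11.69, 11.45 and 11.35 in testis apical tip, 9.56, 9.47, 8.80 and 9.66 in male thorax and 8.81, 9.11, 8.59 and 8.93 in female thorax. Its change against male thorax was 2.41 ± 0.32 (SE, adjusted p = 2.58e-05), a 5.31-fold higher level, and it stayed called on slide B alone (2.94, adjusted p = 0.0389). The probe for transcript RA read 6.17, 8.53, 8.65 and 8.63 in testis apical tip and 10.52, 10.39, 9.67 and 9.95 in male thorax, a change of -2.14 ± 0.58 (SE, adjusted p = 0.00576) that became 0.21 without scaling (adjusted p = 0.772). The median over both probes was 0.14 and not called.

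Shal and sei were not called. Shal, a potassium channel of neuronal cell bodies and dendrites, changed by 0.08 (adjusted p = 0.878), with 11.38, 9.08, 9.32 and 9.33 in testis apical tip and 9.50 to 9.85 in male thorax. Its sign rests on replicate 1, without which the change was -0.46 (adjusted p = 0.01). The ERG-type potassium channel sei changed by 0.40 (adjusted p = 0.322), and by -0.0026 without that replicate (adjusted p = 0.989).

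Of the 3 further neuronal proteins, nrv3 and Appl were lower. The sodium pump subunit nrv3 (CG8663), which is a neuronal form in the fly, read 11.13, 9.54, 9.24 and 9.48 in testis apical tip, 16.55, 16.59, 16.59 and 16.86 in male thorax and 17.07, 17.29, 16.83 and 16.67 in female thorax. Its change against male thorax was -6.80 ± 0.37 (SE, adjusted p = 1.68e-08), a 111-fold lower level, and all 4 of its probes were lower. Appl, the fly relative of the amyloid precursor protein, fell by 1.56 (adjusted p = 0.00462), which became 0.78 without scaling. Another of its probes fell by 6.46 (adjusted p = 4.43e-09), and by 4.11 without scaling (adjusted p = 4.25e-07). The third changed by -1.02 and was not called (adjusted p = 0.128), and by 1.33 without scaling. The microtubule-associated protein gene futsch was dim everywhere and not called (-0.41, adjusted p = 0.713), and its sign turned without scaling (1.94), after quantile normalization (0.76) and without testis apical tip replicate 1 (0.54).

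The tested probes of a gene mostly shared a direction but differed in the size of the change. Of the 90 probes 80 were tested, of which 66 were lower in testis apical tip than in male thorax, 2 were higher and 12 were not called. Over all tested probes 47.2% were lower and 29.3% were higher. Among the 24 genes with several tested probes, all tested probes were lower in 18, and 4 genes (brp, Rab3, Shal and Shaw) had probes of both signs. How often the probes of other genes on the array move alike was not counted. The gap between the highest and the lowest fitted change of a gene's probes had a median of 2.63 log2 units. It was widest for Rab3, in which 2 probes were lower (-7.25 and -5.94) and the third read 3.49, 12.35, 12.42 and 12.28 in testis apical tip against 8.89, 8.40, 5.01 and 6.91 in male thorax (2.83 ± 1.88, SE, adjusted p = 0.191). On 3 of the 4 tip arrays that probe was above every thorax array, and on replicate 1 it was below them all.

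**Figure D3:**
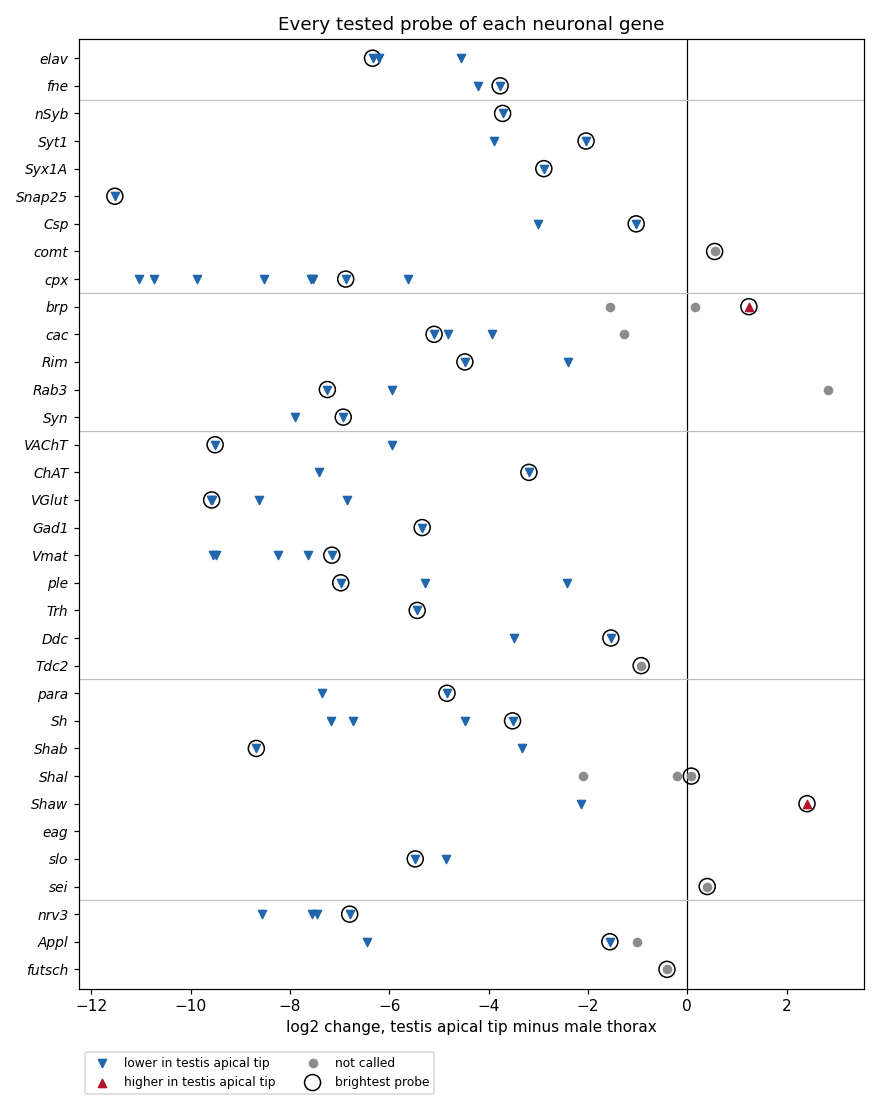
Log2 change in testis apical tip against male thorax for each of the 80 tested probes, 1 row per gene, with triangles for probes called lower (down) or higher (up), grey points for probes not called and a ring around the representative probe. The rows of brp, Rab3, Shal and Shaw hold probes on both sides of 0, and the cpx row holds 8 probes called lower. Where a probe was above background on no array of the tip, as for the 3 leftmost of cpx, the plotted change is the fitted value against a background signal.

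Against female thorax, a comparison that uses the same arrays of testis apical tip, 26 of the 33 genes were lower, 2 were higher and 5 were not called, where 47.4% of all tested probes were lower and 28.8% were higher. The median change was -3.94. The 2 higher genes were Shaw (2.92, adjusted p = 4.88e-06) and comt (1.41, adjusted p = 0.0026), and comt read 11.61 to 12.35 in female thorax, below every array of testis apical tip. Without scaling 16 were lower and 10 were higher, where 22% of all tested probes were lower and 51.5% were higher, and 7 of the 26 lower genes (nSyb, Syt1, Syx1A, Csp, ChAT, Ddc and Appl) changed sign. The largest falls were again those of Snap25 (at least 1580-fold), VAChT (at least 1030-fold) and VGlut (at least 252-fold). The call of nSyb was the closest to the threshold of the 26 (-2.57, adjusted p = 0.0476).

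None of the 33 genes was called between male and female thorax by limma, where 0.153% of all tested probes were higher in males and 0.37% were lower. At an unadjusted p under 0.05 there were 3, which were VAChT, ChAT and comt. VAChT read 12.46, 13.54, 13.61 and 11.92 in male thorax and 14.51, 14.17, 14.78 and 14.74 in female thorax, with no overlap (-1.67 ± 0.43, SE, adjusted p = 0.215). Its other tested probe changed by 0.94 in the opposite direction (adjusted p = 0.982). ChAT was higher in all 4 male arrays (0.94, adjusted p = 0.424), and so was comt (0.86, adjusted p = 0.547). With array weights estimated by limma, under which 4.61% of all tested probes were higher in males and 6.66% were lower, 4 genes passed, namely ChAT (0.74, adjusted p = 0.00785), comt (0.72, adjusted p = 0.0119) and Shaw (0.59, adjusted p = 0.0349) as higher in males and VAChT (-1.40, adjusted p = 0.0428) as lower.

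The male values leaned above the female ones. The difference was above 0 in 27 of the 33 genes, with a median of 0.40 where all tested probes had 0.04. The share of all tested probes above 0 was not counted. On slide A alone, which held both sexes, the median was 0.19, and with the slide as a block it was 0.17, and no gene was called in either. The sexes of replicates 3 and 4 lay on different slides, so there sex and slide cannot be told apart.

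The slides differed for these genes within a sex. In female thorax 29 of the 33 genes were higher on slide A than on slide C, with a median difference of 0.49, against 59.0% of all tested probes and a median of 0.18. In male thorax 21 were higher on slide A than on slide B, with a median of 0.13, against 48.9% and -0.02. In female thorax the gap was widest for nSyb, which in male thorax read 11.93 and 11.47 on slide A and 9.66 and 10.23 on slide B, and in female thorax 10.88 and 11.14 on slide A and 8.29 and 8.37 on slide C. Trh went the other way in both sexes, by -1.13 in males and -1.43 in females, as did Ddc and Shal by smaller differences. These differences between slides were not tested, and their part in the values of single genes was not tested.

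**Figure D4:**
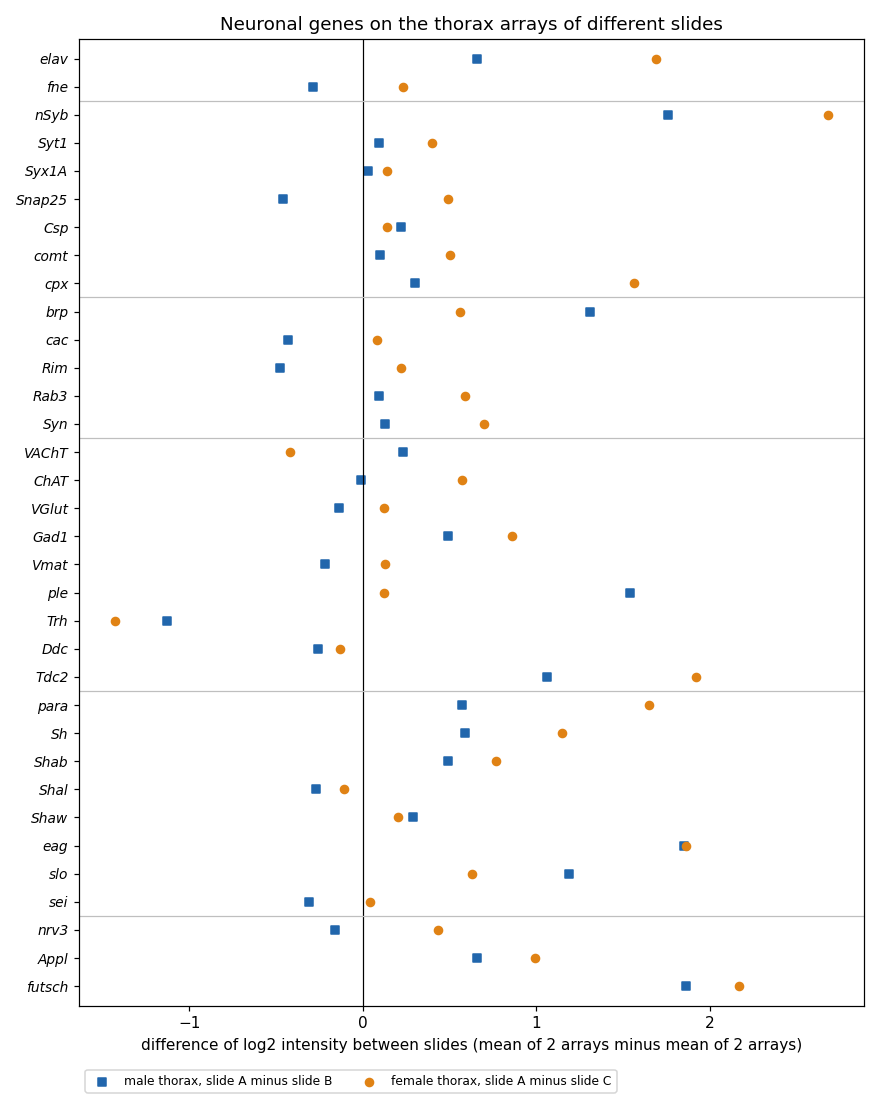
Difference of log2 intensity between the 2 thorax arrays on slide A and the 2 on the other slide, for each gene, in male thorax (squares, slide B) and female thorax (circles, slide C). Most circles lie right of 0, nSyb farthest at 2.68, and Trh lies left of 0 in both sexes.

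Of the 34 genes 9 are X-linked (elav, fne, comt, cac, para, Sh, eag, Appl and futsch), which matters in a study that set the X against the autosomes in the male germline. The 8 tested X-linked genes had a median change of -3.64 in testis apical tip against male thorax, and 6 of them were lower and 2 not called. The 25 autosomal genes had a median of -5.34, and 20 were lower, 2 higher and 3 not called. Between the sexes in thorax the medians were 0.56 for the X-linked and 0.32 for the autosomal genes. Over all tested probes 47.2% were lower and 29.3% were higher against male thorax, and these shares were not counted for X-linked and autosomal probes apart. The 4 genes whose representative probes were above background on no array of the tip (Snap25, VAChT, VGlut and Shab) are all autosomal. With these set to their bounds the autosomal median was again -5.34. These values are a description of few genes, and no test was made.

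Paralogs of the 34 genes, many of which act outside synapses, moved in both directions, in shares not far from those of all tested probes. Of 35 paralogs, all tested, 19 were lower in testis apical tip than in male thorax and 7 were higher, with a median of -1.79, where 47.2% of all tested probes were lower and 29.3% were higher, and 3 of the lower ones (Syb, Syx7 and Rab5) changed sign without scaling. Syt7, a synaptotagmin, was at least 681-fold lower (adjusted p = 1.24e-10), and the muscle and neuronal calcium channel Ca-alpha1D fell by 7.80 (adjusted p = 3.89e-10). Syt14 was higher by 3.78 (adjusted p = 7.57e-07) and Syx18, a syntaxin of the endoplasmic reticulum, by 2.08 (adjusted p = 3.19e-05). The second NSF gene, Nsf2, was higher by 1.58 (adjusted p = 0.000108), where comt was not called. Tdc1, the non-neuronal counterpart of Tdc2, was higher by 1.34 (adjusted p = 0.024). Syb, the synaptobrevin of general secretion, fell by 0.98 (adjusted p = 0.014), less than nSyb, and its change was 1.36 without scaling. The pump subunits nrv1 and nrv2 fell by 5.71 and 3.41 (adjusted p = 2.48e-09 and 1.10e-06) beside nrv3.

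Other genes of the synapse and of neuronal signalling were counted against the same shares, 47.2% lower and 29.3% higher over all tested probes. Among transmitter receptors 15 of 22 tested were lower and 1 was higher, among further synaptic genes 14 and 3 of 21, among channel subunits and other channels 10 and 1 of 11, and among neuropeptide genes 14 and 1 of 16. Without scaling 4, 1, 1 and 0 of the lower ones changed sign. The nicotinic receptor subunit nAChRalpha5 was at least 77.5-fold lower and nAChRalpha7 fell by 6.83, whereas nAChRalpha1 was higher by 2.61 (adjusted p = 0.00969). The endocytic gene stnB was at least 112-fold and the active zone organiser Syd-1 at least 61.1-fold lower, whereas the scaffold Liprin-alpha was higher by 1.50 (adjusted p = 0.000398) and the clathrin adaptor lap by 0.98 (adjusted p = 0.00529). Hk, the beta subunit of the Sh channel, fell by 7.51 and Irk1, an inward rectifier, by 7.10, while tipE, an accessory protein of para, was higher by 0.85 (adjusted p = 0.0205) where para itself was lower. The neuropeptide genes Proc and Nplp1 showed the largest fitted falls of their list, at least 395-fold and by 9.82, and CCAP was higher by 0.99 (adjusted p = 0.045).

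Markers of the other cells of a thorax moved in the same direction as the neuronal genes. All 8 flight muscle markers were lower in testis apical tip than in male thorax, with a median of -9.80, where up was at least 4100-fold lower and the signal of Act88F, the flight muscle actin, fell by 12.09 on the log2 scale. Of 8 glial markers 7 were lower (alrm at least 967-fold, while Eaat1, a glutamate transporter, fell by 11.23), of which moody changed sign without scaling. Lower as well were 5 of 5 fat body markers (Fbp1 at least 21.0-fold, while Lsp2 fell by 4.67), 4 of 4 hemocyte markers (NimC1 fell by 6.51, He was at least 35.4-fold lower, and srp changed sign without scaling) and 4 of 4 tested tracheal and epidermal markers (trh, at least 90.1-fold, while e fell by 6.25). The germline markers were higher in 11 of 12, led by Rbp4 (8.42) and can (8.18). Of 7 cyst and hub markers 3 were higher (upd1 and eya most, by 2.54 and 1.38) and Fas3 fell by 1.25, a change that became 1.09 without scaling. The share of the neuronal changes that goes with this difference in cell types was not tested.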

How the data were processed

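RNA from testis apical tip, male thorax and female thorax was measured on 12 1-colour Agilent arrays, 4 per tissue, each a separate RNA pool by the methods. The deposited intensities were made by the authors with Agilent Feature Extraction (version 9.1 per the labels, 10.5.1.1 per the file headers), which took off the local background of each spot, put a positive stand-in in place of the smallest values and left the arrays unscaled. A further deposited file gives 1 mean per tissue and probe on the log2 scale, as computed by the authors over the 4 arrays, and served as an alternative without a test. By the methods, the authors averaged the spots of a repeated probe, ran their analyses in limma, and set aside probes under log2 7 in every tissue when they computed ratios of X to autosomes. A scaling between arrays is not given in the sources used here.

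Control spots and outlier flags were left out, replicate spots averaged, averages taken to log2, and arrays shifted to a common 75th percentile. All 12 arrays entered 1 limma fit (limma 3.58.1, R 4.3.3), with Python 3.11.15, numpy 2.4.6, pandas 2.3.3 and matplotlib 3.10.9 for summaries, and the fit was tested on simulated data. Probes were named through the locus tags and synonyms of RefSeq's table, whose assembly is later than the array's annotation, so no coordinates are given. The outlier flags removed from 112 to 389 spots of an array, and the number of arrays limits the precision. Replicate numbers only name arrays, by slide and position, since the files hold none. The p-values measure the spread between arrays of a tissue, taken over all 3 tissues, in which pool and slide are not separated. Those between the sexes thus carry the spread of the testis apical tip arrays too. In a fit of the 8 thorax arrays alone, 126 of all 24878 tested probes were higher in males and 168 were lower. None of the 33 genes was called in it.

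The genes and the lists were chosen with earlier results of these data known. Values on every array were given for the largest called fall and rise of each role group, for genes called between the sexes and for genes whose called probes oppose. Further arrays, and the paralogs set beside a gene, were chosen after their values were seen. In the other lists the 2 largest called changes in each direction were named. Alternatives covered scaling, background correction (normexp, offset 50), filters, slide, array weights, probe choice, the authors' table and each array left out.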

Additional observations from a re-analysis of the deposited data

Results flagged for a closer look

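Of 101 sets of 4 arrays (1 gene in 1 tissue), 16 held an array whose gap to its nearest neighbour passed Dixon's 95% critical value for 4 values, where chance passes about 1 in 20. Testis apical tip replicate 1 was the outlying array in 15 of the 16, above the other 3 arrays in 10 genes and below them in 5. It lay above for fne (9.56, others 7.82 to 8.03), Syx1A (12.02, others 10.03 to 10.19), comt (14.57, others 13.05 to 13.21), Rim (7.99, others 6.09 to 6.36) and ChAT (8.51, others 7.23 to 7.31). The same held for Gad1 (10.65, others 8.59 to 8.89), Ddc (13.54, others 11.34 to 11.54), Shal (11.38, others 9.08 to 9.33), sei (11.93, others 10.27 to 10.35) and nrv3 (11.13, others 9.24 to 9.54). It lay below for nSyb (3.80, others 8.09 to 8.26), Trh (3.22, others 5.26 to 5.35), Tdc2 (4.33, others 6.11 to 6.42), eag (3.35, others 5.39 to 5.43) and futsch (3.32, others 7.10 to 7.14). The remaining one was nrv3 in male thorax replicate 4 (16.86, others 16.55 to 16.59). Over the 33 tested genes replicate 1 was more than 2 log2 units above the mean of the other 3 arrays in 5 and more than 2 below it in 4, against 1667 and 5748 of all 24878 tested probes.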

How the results depend on the processing

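Of the 28 genes called in testis apical tip against male thorax, 19 kept their call and direction under all alternatives that could test them, and 24 kept their direction. The exceptions in direction were Syt1, Csp, Ddc and Appl. Without scaling their representative probes changed by 0.30, 1.31, 0.80 and 0.78, and in the authors' table, which is unscaled, by 0.30, 1.31, 0.80 and 0.78. Another probe of each still fell without scaling, by 1.56, 0.66, 1.14 and 4.11, and only that of Appl was called (adjusted p = 4.25e-07). The third probe of Appl changed by 1.33. Among the genes not called, signs turned for Tdc2 (1.42 without scaling, 0.62 by quantile normalization, 1.57 in the authors' table), futsch (1.94, 0.76, 0.31 with the slide as a block, 0.54 without testis apical tip replicate 1 and from -0.81 to 0.54 over all arrays left out), sei (-0.0026 without that replicate, up to 0.55) and Shal (-0.042 with normexp, -0.30 with array weights, -0.46 without that replicate, up to 0.31, and -0.46 as the median over probes). The cause was not tested.

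Against male thorax the number called higher was 6 without scaling, 1 on slide B alone, 0 by the median over probes and 1 to 2 with an array left out, and the number lower was 15 with probes above background on all 12 arrays, which tests fewer genes, and 26 to 27 with an array left out. The number higher was 1 without male thorax replicate 4, and it was brp that was lost. Over all tested probes (24872 to 24911) 11980 were higher without scaling, 3956 on slide B alone and 7296 by the median over probes, where the main fit had 7296. With an array left out 6937 to 8710 of all probes were higher and 11240 to 12702 were lower. Of the 12986 probes above background on all 12 arrays, 6648 were lower. The median of the genes moved to -2.14 without scaling, -3.47 by quantile, -3.92 by normexp, -4.13 with no filter, -3.04 on probes above background on all 12 arrays, -5.17 by the median over probes and -1.43 in the authors' table, and ran from -4.60 to -4.18 with an array left out. The authors' table gives no change against male thorax for some of the genes, so its median covers fewer of them. Against female thorax the number higher was 10 without scaling, 4 by quantile, 4 with the slide as a block, 5 on slide C alone, 4 with array weights, 1 by the median over probes and 2 to 3 with an array left out, and the number lower was 16 without scaling, 15 on all 12 arrays and 25 to 26 with an array left out. Over all tested probes 12816 were higher without scaling, 8335 by quantile, 7175 with the slide as a block and 9277 on slide C alone. With array weights 9103 were higher, by the median over probes 7177, in the main fit 7175 and with an array left out 6789 to 8633. Lower were 5467 without scaling, 6726 of 12986 on all 12 arrays and 11276 to 12743 with an array left out. The median of the genes against female thorax was -1.28 without scaling, -2.81 by quantile, -2.41 on all 12 arrays, -3.40 with the slide as a block, -4.41 over probes, -0.56 in the authors' table and -4.06 to -3.62 with an array left out. Between the sexes array weights called 3 higher and 1 lower, no array left out gave a call (0 to 0), and the median ran from 0.27 to 0.60. No paired analysis was possible because the files and titles give no array a replicate number.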
